A study of Homo sapiens with 4 samples.

Results

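The genes described here encode 7 proteins of the RAS-RAF-MEK-ERK cascade: HRAS, NRAS, BRAF, MAP2K1, MAP2K2, MAPK3 and DUSP6. They were taken from the 58302 Ensembl genes listed for each library by matching the gene identifier to these symbols, and measured values played no part in that choice. All 7 were matched, and all 7 had a mean of at least 1 FPKM (fragments scaled for transcript length and for the reads assigned in the library) over the libraries and so entered the test. PolyA RNA was sequenced from T24, an established human bladder carcinoma line known for carrying a mutant HRAS. Of the 4 libraries, 2 were labelled control and 2 came from T24 cells with an IGF2BP3 knockout made by CRISPR/Cas9. IGF2BP3 is an RNA-binding protein that binds messenger RNAs, many of them methylated on adenosine. Both groups thus share the mutant HRAS background, no treatment is given in the labels, and whether the control cells carried Cas9 or a guide is not given in the sources used here. The labels do not tell whether the libraries of a group are separate cultures, or whether the knockout line is 1 clone. Every p-value thus measures only the spread between these libraries, taken over many genes. The comparison addresses how the RNA of the cascade differs when IGF2BP3 is lost.

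In this cascade, growth factor receptors load the small GTPases of the RAS family with GTP at the inner face of the plasma membrane. GTP-bound RAS recruits RAF kinases, which phosphorylate the kinases MEK1 (MAP2K1) and MEK2 (MAP2K2), and these phosphorylate the ERK kinases, among them ERK1 (MAPK3). Active ERK induces DUSP6, a phosphatase of the cytoplasm that removes the activating phosphates from ERK, so DUSP6 RNA is widely read as a marker of ERK output. Signalling through the cascade is set mainly by GTP loading and phosphorylation, which RNA levels do not measure.

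The coding stretches below hold the residues through which one step acts on the next, and the MEK pair shows how alike paralogs can be. They were read from GENCODE 29 transcripts (hg38), are written 5′ to 3′ in the sense of the gene, and lie in coding exons. For MAP2K1 (codons 208 to 233, from 66481808 to 66484995 on the plus strand of chromosome 15) and MAP2K2 (codons 212 to 237, from 4099409 to 4101090 on the minus strand of chromosome 19) they are the activation segment, split over 2 exons, with the codons of the 2 serines that RAF phosphorylates in capitals.
MAP2K1: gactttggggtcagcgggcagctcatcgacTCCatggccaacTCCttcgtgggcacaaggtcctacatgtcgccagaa
MAP2K2: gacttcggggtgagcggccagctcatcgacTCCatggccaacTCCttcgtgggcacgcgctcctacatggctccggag
The capitals mark codons 218 and 222 of MAP2K1 and codons 222 and 226 of MAP2K2, and 68 of the 78 bases were the same, with 1 residue different. For MAPK3 (chr16:30118065-30118157, minus strand) the activation segment of codons 184 to 214 is shown, with the threonine and tyrosine codons, 202 and 204, that MEK phosphorylates and DUSP6 dephosphorylates in capitals. For DUSP6 (chr12:89349503-89349526, minus strand) codons 292 to 299 are shown, with the catalytic cysteine, codon 293, in capitals.
MAPK3: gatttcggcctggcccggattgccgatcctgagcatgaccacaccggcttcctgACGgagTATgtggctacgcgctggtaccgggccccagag
DUSP6: catTGCttggctggcattagccgc

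Paralogs of the cascade differed at about 1 base in 4 of their coding sequence. Coding sequences of HRAS and NRAS were identical at 73.9% of aligned bases, and the longest run shared by their transcripts was 14 bases. MAP2K1 and MAP2K2 were identical at 74.8%, with a longest shared run of 38 bases. The pseudogenes were closer. MAP2K1P1 matched the MAP2K1 coding sequence at 95.5% of aligned bases with a shared run of 101 bases, and BRAFP1 matched that of BRAF at 94.3% with a run of 111 bases. Both pseudogenes, named here whatever their level, were listed at 0 in all 4 libraries. How reads that fit 2 places were counted is not given in the sources used here.

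The libraries were shallow, and the values of most of the transcriptome varied widely between replicates. Whole reads recovered from the FPKM put the library totals at 811823 to 2162179 reads assigned to genes, the controls above the knockouts. Between the controls, the number of genes above 0 did not follow depth. Control 1, the deepest library, had 8856 such genes and control 2 had 11433. Knockout 1 had 7827 and knockout 2 had 11127. The cause was not tested. The 7 genes together held 1231 and 907 reads in the control libraries and 548 and 784 in the knockout libraries. Intervals given below on reads are exact at 95% and cover counting error only, since copied reads are not separate molecules. IGF2BP3 had 27 and 171 reads in the control libraries and 0 and 1 in the knockout libraries, in the direction of the labels (log2 fold change −3.89 ± 2.83, SE, limma adjusted p = 0.955, not past the threshold). Of 6 epithelial markers, KRT19, EPCAM and CDH1 were listed at 0 throughout, and the other 3 were higher in both knockouts than in either control. KRT7 had 0 and 4.27 FPKM for the controls against 56.9 and 33.1 for the knockouts, KRT8 266 and 397 against 1138 and 816, and KRT18 173 and 173 against 303 and 314. The 6 summed to 439.6 and 575 FPKM for the controls against 1499 and 1163 for the knockouts. Vimentin, a mesenchymal marker abundant in T24, had 177 and 172 against 267 and 372, and with CDH2 and ZEB1 it summed to 177 and 184 against 321 and 375. NRAS and DUSP6 lay on the same side as these markers, whose part in those results was not tested. Of 6 markers of urothelial differentiation, 4 were at 0 in all libraries. Of 11 markers of leukocytes, endothelium and fibroblasts, 8 were at 0 in all libraries and the summed level of the 11 was 14.9 and 2.72 FPKM in the control libraries and 0 and 6.73 in the knockout libraries.

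None of the 7 genes passed the test. In limma, with Benjamini-Hochberg adjustment over all 11463 genes tested and a threshold of 0.05, 0 of 7 were called, against 10 genes, or 0.0872%, of all tested. The smallest adjusted p among the 7 was 0.955. For each of the 7, the SE of this fit came from the spread of genes of like level, not from the gene's own replicates. At an unadjusted p of 0.05, 0 of 7 passed, against 3.91% of all genes, and limma-voom on the recovered reads also called 0 of 7 by either measure. The fitted difference was above 0 for 6 of the 7, with a median log2 fold change of 0.25, against 48.2% above 0 and a median of −0.08 over all genes tested. The knockout libraries lay wholly above the controls for 2 of the 7 (28.6%), NRAS and DUSP6, and wholly below for none. Counting both directions, this was near the share of all genes with groups that did not overlap, 26.5% (12.1% higher and 14.4% lower in the knockout). With 2 libraries against 2, an exact permutation test of a single gene cannot go below a two-sided p of 0.333. In bulk RNA, a change in the share of cells that express a gene and a change in RNA per cell cannot be told apart.

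**Figure D1:**
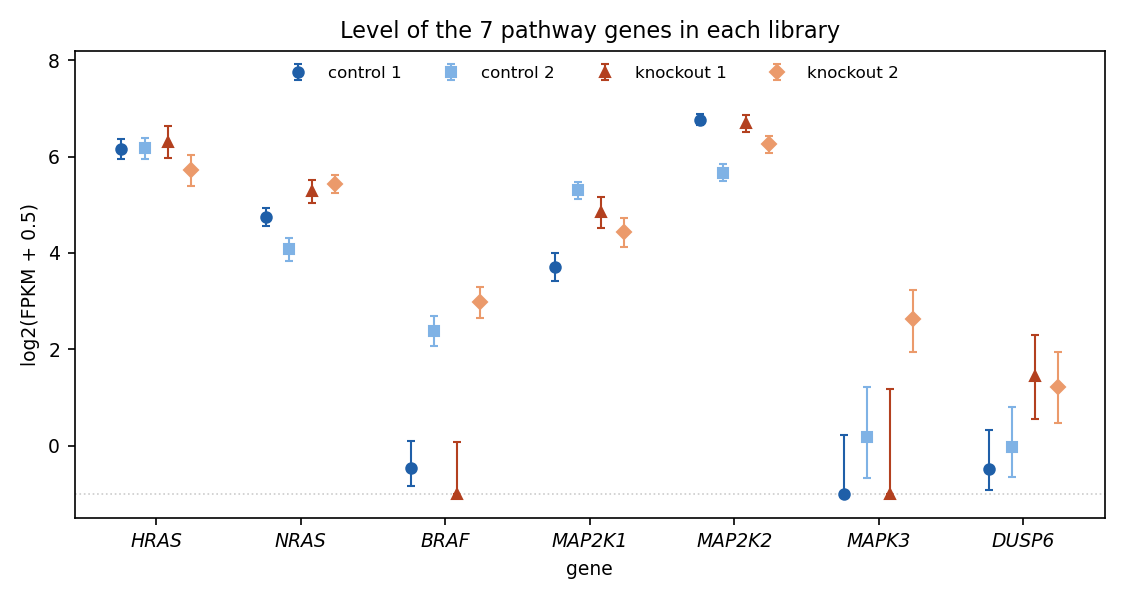
Level of each of the 7 genes as log2(FPKM + 0.5), with 1 point per library and bars for the exact 95% interval of its read count (counting error only); the dotted line marks 0 FPKM. HRAS, NRAS and both MEK genes sit far above BRAF, MAPK3 and DUSP6, and the knockout points lie above both control points for NRAS and DUSP6.

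Among the GTPases, HRAS held nearly the same level in 3 of the 4 libraries. HRAS (ENSG00000174775, chr11:532242-537287, minus strand) stood at 71.3 and 71.5 FPKM in control 1 and control 2, and at 78.9 and 52.3 in knockout 1 and knockout 2. The controls lay between the knockouts, so the groups overlapped. The means were 71.4 ± 0.183 in the control libraries and 65.6 ± 18.8 in the knockout libraries (SD, n = 2 each), and the log2 fold change of −0.15 ± 0.85 (SE) had a 95% interval from −1.82 to 1.51. Read totals scaled for depth gave 0.880 of the control level in the knockout (0.725 to 1.06), or 0.733 without knockout 1 and 1.11 without knockout 2. Of all genes tested, 4.20% had a smaller SD between replicates than HRAS.

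NRAS, which encodes a closely related GTPase, was higher in both knockout libraries than in either control. NRAS (ENSG00000213281, chr1:114704469-114716894, minus strand) had 26.4 and 16.5 FPKM in the control libraries and 38.5 and 42.8 in the knockout libraries. The lowest knockout value stood above the highest control value. The means were 21.4 ± 7.03 and 40.6 ± 3.03 FPKM (SD, n = 2 each), and the log2 fold change was 0.94 ± 1.17 (SE, 95% interval −1.35 to 3.24, limma adjusted p = 0.955). The read counts behind these values were 254 and 137 against 139 and 236. Their depth-scaled ratio of 1.88 (1.63 to 2.18) has an interval that takes no account of the difference between replicates. That ratio was 2.50 without control 1 and 1.56 without control 2, and it was 1.96 and 1.77 without knockout 1 and knockout 2. With groups that do not overlap, it has to stay above 1 whichever library is left out. The controls differed from each other beyond counting error (control 2 over control 1 of 0.623, 0.503 to 0.770), and the knockouts did not (1.11, 0.897 to 1.38). The SE of 1.17 comes from the spread of genes of like level, and the closeness of the NRAS replicates themselves did not enter it.

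HRAS RNA exceeded NRAS RNA per length in all 4 libraries, by a margin that was smaller in both knockouts. The ratio of their FPKM was 2.70 (2.22 to 3.27) in control 1 and 4.35 (3.44 to 5.49) in control 2. In the knockouts it was 2.05 (1.54 to 2.72) and 1.22 (0.937 to 1.58). The groups did not overlap in this ratio, and control 1 and knockout 1 had intervals that did. Since the NRAS groups already did not overlap, the ratio is no separate support. How often other pairs of genes have such ratios was not tested. The summed level of HRAS and NRAS varied less, at 97.7 and 88.0 FPKM in the control libraries against 117 and 95.1 in the knockout libraries.

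BRAF, the RAF kinase with the highest basal activity, was near or at 0 in 1 library of each group. BRAF (ENSG00000157764, chr7:140719327-140924928, minus strand) had 0.223 and 4.70 FPKM in the control libraries, and 0 and 7.39 in the knockout libraries. These stand for 4, 73, 0 and 76 reads, and for the 0 of knockout 1 the floor of 3 reads stands for 0.446 FPKM, while the exact two-sided 95% interval reaches 0.548 FPKM. Replicates differed more than the groups did. Read totals scaled for depth gave 1.94 times the control level in the knockout (1.39 to 2.70), an interval that takes no account of the difference between replicates. The log2 fold change of 0.03 ± 2.81 (SE, 95% interval −5.47 to 5.54) became −1.39 when control 1 was left out and 1.46 when control 2 was. It became 2.02 on leaving out knockout 1 and −1.96 on leaving out knockout 2. Its sign also turned to −0.53 with a pseudocount of 0.1. The gene NDUFB2, a subunit of respiratory complex I on the other strand, overlaps BRAF by 3464 bases and had 160 and 54.5 FPKM in the control libraries against 158 and 13.6 in the knockout libraries, and its part in the reads of BRAF was not tested.

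**Figure D2:**
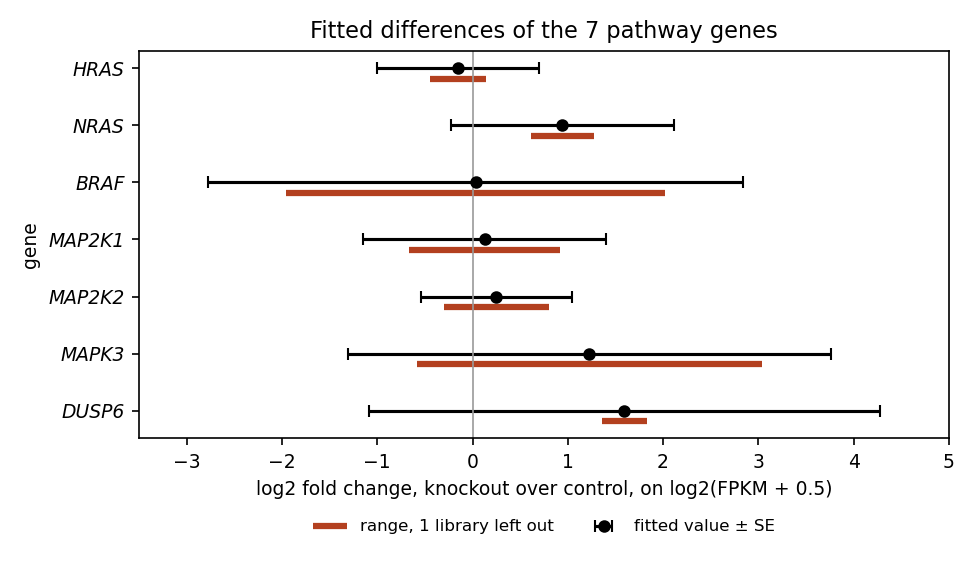
Fitted log2 fold change of knockout over control for each gene (black point, bar ± SE of the limma fit) and the range of the fitted value when 1 of the 4 libraries is left out (red bar). Every SE bar crosses 0, and the red bar stays above 0 for NRAS and DUSP6 alone. Groups that do not overlap, as for these genes, keep their sign whichever library is left out, so the red bar adds no further support.

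Of the kinases in the set, the MEK genes varied least between replicates, and both had small fitted differences above 0 whose sign turned with the library left out. MAP2K1 (ENSG00000169032, chr15:66386817-66492312, plus strand) had 12.6 and 39.0 FPKM in the control libraries and 28.2 and 21.0 in the knockout libraries. The controls enclosed the knockouts. Its means were 25.8 ± 18.7 and 24.6 ± 5.04 FPKM (SD, n = 2 each), with a log2 fold change of 0.13 ± 1.28 (SE, 95% interval −2.38 to 2.63), which was −0.67 without control 1 and 0.92 without control 2. SNAPC5, a subunit of the factor for small nuclear RNA genes, overlaps it on the other strand by 2178 bases and stood at 0 and 20.6 FPKM in the control libraries and 2.12 and 0 in the knockout libraries; its part was not tested.

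MAP2K2 was the most abundant of the 7 genes on average. MAP2K2 (ENSG00000126934, chr19:4090321-4124129, minus strand) had 109 and 50.4 FPKM in the control libraries and 103 and 75.8 in the knockout libraries. Here too the controls enclosed the knockouts, with means of 79.6 ± 41.2 and 89.3 ± 19.05 FPKM (SD, n = 2 each). The log2 fold change was 0.25 ± 0.80 (SE, 95% interval −1.31 to 1.81), or −0.30 without control 2 and 0.80 without control 1. Its 688 and 276 control reads were the largest control counts of the set, and control 2 over control 1, scaled for depth, was 0.464 (0.402 to 0.534), beyond counting error.

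The balance of the MEK genes differed most between the controls. MAP2K2 over MAP2K1, as a ratio of FPKM, was 8.62 (6.93 to 10.8) in control 1 and 1.29 (1.08 to 1.54) in control 2. It was 3.65 (2.81 to 4.77) in knockout 1 and 3.60 (2.83 to 4.63) in knockout 2. The knockouts were alike within counting error and lay between the controls. The summed level of the MEK genes spanned a narrower range, 121 and 89.4 FPKM in the control libraries against 131 and 96.8 in the knockout libraries.

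**Figure D3:**
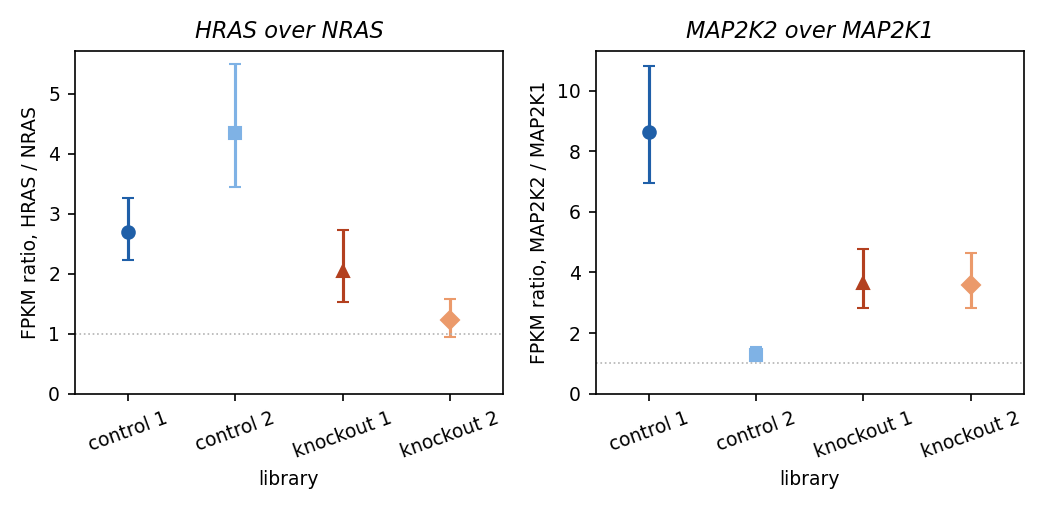
Ratio of FPKM within each pair of paralogs by library, with exact 95% intervals from the reads (counting error only); the dotted line marks equal levels per length. HRAS over NRAS is higher in both controls than in both knockouts, and MAP2K2 over MAP2K1 runs from 1.29 to 8.62 within the control libraries alone.

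MAPK3, which encodes ERK1, was barely detected. MAPK3 (ENSG00000102882, chr16:30114105-30123506, minus strand) was listed at 0 in control 1 and knockout 1, at 0.625 FPKM in control 2 and at 5.65 in knockout 2. Only knockout 2, with 18 reads, held more than 3 reads. For the counts of 0, the floor of 3 reads stands for 0.541 FPKM in control 1 and 1.44 in knockout 1, and the exact two-sided 95% interval reaches 0.665 and 1.77 FPKM. The log2 fold change of 1.23 ± 2.54 (SE, 95% interval −3.74 to 6.19) rested on that 1 library and was −0.58 without it. Read totals scaled for depth gave a ratio of 11.8 (3.44 to 62.5), which rested on knockout 2 as well.

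DUSP6, the feedback phosphatase, was low everywhere and higher in both knockouts. DUSP6 (ENSG00000139318, chr12:89347232-89353271, minus strand) had 0.210 and 0.486 FPKM in the control libraries and 2.24 and 1.83 in the knockout libraries. The groups did not overlap. The means were 0.348 ± 0.195 and 2.04 ± 0.288 FPKM (SD, n = 2 each), and the log2 fold change on the log2(FPKM + 0.5) scale was 1.60 ± 2.68 (SE, 95% interval −3.66 to 6.85, limma adjusted p = 0.965). The values stand for 2 and 4 reads in the control libraries and 8 and 10 in the knockout libraries. Scaled for depth, the knockout total was 5.90 times the control total, with an interval from 2.24 to 18.1. Leaving out control 1 gave 4.10 and leaving out control 2 gave 9.48. Leaving out either knockout gave 5.42 or 6.62. The lower bounds of these 4 ratios ran from 1.35 to 2.27. Like the interval from 2.24 to 18.1, they take no account of the difference between replicates. As for NRAS, groups that do not overlap keep such ratios above 1. An antisense gene, AC024909.2, covers 2257 bases of the same locus and had 7.10 FPKM in control 2 and 0 in the other 3 libraries; its part in the DUSP6 reads was not tested.

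Ordered by mean level per length over the 4 libraries, the genes ran MAP2K2 (84.4 FPKM), HRAS (68.5), NRAS (31.03), MAP2K1 (25.2), BRAF (3.08), MAPK3 (1.57) and DUSP6 (1.19). Between neighbours, HRAS was above NRAS and MAP2K1 above BRAF in 4 of 4 libraries with ranges that did not meet. MAP2K2 was above HRAS, NRAS above MAP2K1 and BRAF above MAPK3 in 3 of 4, and MAPK3 above DUSP6 in 2 of 4, so these neighbours did not differ beyond their spread. The 7 genes summed to 219 and 183 FPKM in the control libraries and 251 and 207 in the knockout libraries, ranges that overlapped. HRAS and MAP2K2 alone made up 61.9 to 82.0% of that sum.

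Replicate spread set the genes apart from each other. The SD between replicates, pooled over both groups on the log2 scale, was 0.26 for DUSP6, 0.29 for HRAS, 0.34 for NRAS, 0.59 for MAP2K2 and 0.82 for MAP2K1. BRAF had 2.45 and MAPK3 1.90, against a median of 1.79 over all genes tested. The small spread of DUSP6 belongs to a scale on which the added 0.5 FPKM outweighs or matches its control values.

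**Figure D4:**
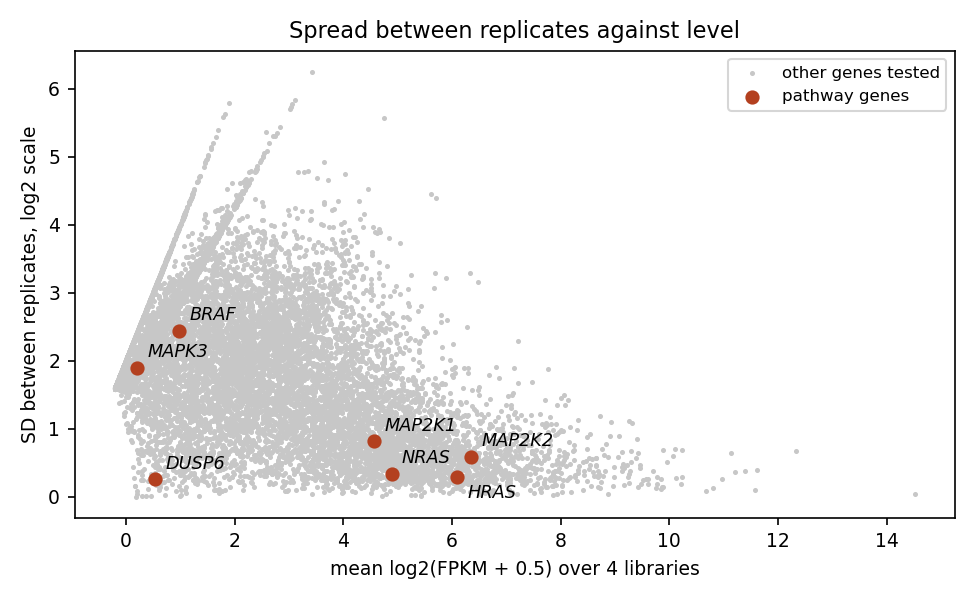
SD between replicates, pooled over both groups, against mean level, both on log2(FPKM + 0.5), for all 11463 genes tested (grey) and the 7 genes (red). HRAS, NRAS and DUSP6 have an SD under 0.35, while BRAF and MAPK3 sit above the overall median of 1.79.

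Beyond the 7, lists of 82 further genes of the pathway were read from the same fit. Of these, 72 were tested, 41 higher and 31 lower in the knockout, with a median log2 fold change of 0.14 (−0.08 over all genes). None passed the threshold in limma, and 8 (11.1%) had an unadjusted p under 0.05, against 3.91% of all genes tested. Groups did not overlap for 12 genes on the higher side (16.7%) and 10 on the lower side (13.9%), near the 12.1% and 14.4% of all genes. At least 1 library listed 22 of the 72 at 0 (30.6%), against 49.4% of all genes tested.

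Among the other core GTPases and kinases, 4 of 6 tested were higher, with no member past the threshold. RRAS, a RAS relative tied to integrin activity, had 0 and 29.2 FPKM in the control libraries against 34.2 and 30.9 in the knockout libraries. Control 1 at 0 made most of the difference, and without it the log2 fold change was 0.15. ARAF, the RAF kinase of lowest activity, ran the other way at 69.8 and 12.4 against 0 and 4.83 FPKM (log2 fold change −4.20 ± 2.15, SE).

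Upstream, 4 of 10 receptors and ligands were higher and 6 lower, with a median of −0.42. IGF1R, the receptor of insulin-like growth factors, had 4.04 and 4.35 FPKM in the control libraries against 16.9 and 15.03 in the knockout libraries. FGFR1, a fibroblast growth factor receptor, had 17.7 and 13.4 against 0.203 and 11.05, and EREG, a ligand of the EGF receptor, 8.71 and 6.60 against 60.3 and 12.6. Groups did not overlap for any of these 3, and the replicates of both groups were close for IGF1R only. The 3 were named for large fold changes, a choice that favours groups that do not overlap. Over the list, groups did not overlap for 2 of 10 genes on the higher side (20%) and 3 on the lower side (30%). The shares of all genes tested were 12.1% and 14.4%.

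Adaptors and exchange factors, which couple receptors to RAS, were split 4 to 3. No member had groups that did not overlap, while 26.5% of all genes tested did. GRB2 had 9.43 and 72.2 FPKM against 77.0 and 59.0, SOS1, a RAS exchange factor, 17.1 and 12.4 against 0 and 14.1, and CRKL 5.12 and 50.8 against 1.62 and 9.99. The GTPase-activating proteins, which switch RAS off, were split 4 to 3 as well. NF1, the best known of them, stood at 10.5 and 19.7 FPKM in the control libraries and at 47.1 and 33.4 in the knockout libraries, a log2 fold change of 1.43 ± 1.26 (SE). DAB2IP had 14.1 and 6.85 against 0.545 and 4.52.

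Enzymes that attach and handle the lipid anchor of RAS were thinly measured, with 5 of 8 tested, 4 of them higher. LYPLA1, a thioesterase that removes palmitate from RAS proteins, had 89.3 and 8.68 FPKM in the control libraries and 0 and 0.624 in the knockout libraries. GOLGA7 and ZDHHC9, which together form a palmitoyl transferase for HRAS and NRAS, were each high in knockout 1 alone, at 80.2 and 20.8 FPKM. In the remaining libraries GOLGA7 was at most 0.456 FPKM and ZDHHC9 at most 5.03. Their fitted differences reversed without knockout 1 (−0.47 and −0.69).

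Scaffolds and regulators of RAF were higher for 7 of 9 tested, with a median log2 fold change of 0.65. SHOC2, part of the phosphatase complex that activates RAF, had 0.586 and 3.66 FPKM in the control libraries against 33.7 and 38.4 in the knockout libraries. IQGAP1, a scaffold for MEK and ERK, had 20.01 and 46.04 against 96.7 and 72.6. PPP2CA, a catalytic subunit of protein phosphatase 2A, had 1.79 and 22.2 against 27.3 and 14.05, with groups that overlapped. SHOC2 had a log2 fold change of 4.10 ± 1.95 (SE, limma adjusted p = 0.955). It lay between 3.13 and 5.07 with 1 library left out, and since the SHOC2 groups did not overlap its sign could not turn.

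Downstream, substrates of ERK and transcripts it induces showed no common direction. Of 9 substrates, 4 were higher. ETS1, a transcription factor phosphorylated by ERK, had 11.07 and 24.8 FPKM against 102 and 67.5, and ELK4 had 5.92 and 8.196 against 30.9 and 5.98. MAPKAPK2, counted here with the substrates though its place among them was not tested, had 67.8 and 31.4 against 0.416 and 23.1. Of 9 tested transcripts induced by ERK, 5 were higher. EPHA2, a receptor kinase, had 15.6 and 67.7 FPKM in the control libraries against 151 and 105 in the knockout libraries, and the transcription factor gene ETV4 had 0.381 and 1.10 against 15.2 and 6.64. IER3, an early response gene, had 55.8 and 1.58 against 39.2 and 144, groups that overlapped. CCND1, which encodes cyclin D1 and was named after its values were seen, pointed down: 359 and 316 against 91.2 and 227 FPKM, with a fitted log2 difference of −1.23 ± 0.56 (SE, limma adjusted p = 0.955).

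The other feedback inhibitors had no common direction. Of 10 tested, 5 were higher and 5 lower, with a median of 0.07. DUSP5, a nuclear ERK phosphatase, had 33.8 and 23.6 FPKM in the control libraries and 0 and 0.315 in the knockout libraries. Its log2 fold change ran from −5.85 to −5.14 with a library left out, where groups that do not overlap fix the sign. DUSP7, a cytoplasmic relative of DUSP6, had 4.15 and 32.97 against 0.738 and 13.3, and DUSP4 had 4.25 FPKM in control 2 and 0 elsewhere. DUSP5 thus had groups apart on the lower side and DUSP6 on the higher side, and neither passed the threshold.

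**Figure D5:**
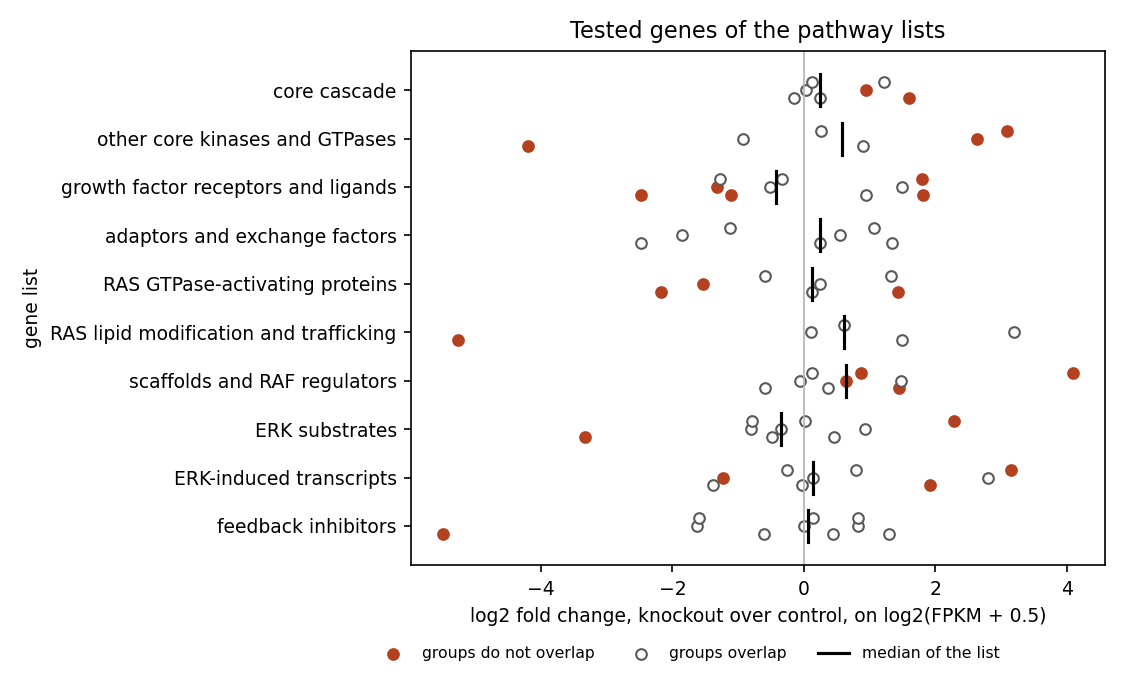
Fitted log2 fold change of each tested gene by list, with the median of the list as a black bar; filled red points have groups that do not overlap. Points lie on both sides of 0 in every list, and the medians run from −0.42 for receptors and ligands to 0.65 for scaffolds and RAF regulators.

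Several genes outside the pathway had nearly the same profile over the 4 libraries as a member, measured as the Euclidean distance between centred log2(FPKM + 0.5) values among 9545 protein-coding genes. The nearest to HRAS was ANLN, which encodes an actin-binding protein of the cleavage furrow, at a distance of 0.050, and 164 genes lay within 0.5. The nearest to DUSP6 was KRT8, a keratin of simple epithelia, at 0.19, with 266 and 397 FPKM in the control libraries against 1138 and 816 in the knockout libraries. That nearness holds on this scale, where the added 0.5 FPKM shrinks the difference of DUSP6 (controls of 0.210 and 0.486 FPKM) and hardly that of KRT8. For NRAS it was CD3EAP (0.18), for MAP2K1 SRSF3 (0.089), for MAP2K2 SLC7A5 (0.14), for BRAF KLHL5 (0.14) and for MAPK3 HIST2H4A (0.068). With 4 values per gene and 9545 candidates, a near profile was found for each of the 7.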

How the data were processed

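PolyA RNA-seq of 4 libraries was analysed. The authors deposited 1 table of FPKM per library, with reads counted per gene by HTSeq, per the file names, and hg38 is the build named, per the submitters' processing notes. For the aligner, annotation release, strand setting and duplicates, nothing is stated in the labels or headers. Names, positions and transcript lengths came from GENCODE 29, which matched 58039 of 58302 genes. FPKM times the longest transcript gave whole multiples of 1 step for 96.4 to 96.5% of genes above 0 (tolerance 0.0001 reads), from which reads and library totals were recovered. The length behind BRAF, 8294 bases, was solved from its own values. Such lengths understate genes whose shorter transcripts dominate.

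The 11463 genes averaging 1 FPKM or more were compared between knockout and control with limma 3.58.1 in R 4.3.3 on log2(FPKM + 0.5), with a variance trend, two-sided and adjusted over all of them. This scale understates changes of low genes. The script was tested on simulated reads whose spread between replicates was set beforehand, not taken from these data. That run therefore cannot show how the test behaves on these libraries. Ratios of reads have exact conditional 95% intervals. The genes, lists and alternatives were chosen with earlier results of these data known. Of each list, the 3 tested genes with the largest absolute fold change were named, with any gene past the threshold, genes overlapping a member and the nearest gene by profile; CCND1 and the pseudogenes at 0 were added to these, and some items the rule chose are not reported here. Python 3.11.15, scipy 1.17.1, Biopython 1.88 and matplotlib 3.10.9 were used.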

Additional observations from a re-analysis of the deposited data

How the results depend on the processing

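The count of 0 of the 7 genes past the threshold held in all 17 alternatives (pseudocount, filter, scaling, moderation, block, threshold, protein-coding genes, limma-voom and each library left out), with a smallest adjusted p among them of 0.594 in limma. With a minimum of 5 FPKM, 4 of the 7 were tested. Of 11463 genes tested, 10 passed with 4 libraries; 0 passed in limma without trend (415 at an unadjusted p under 0.05), 2 among protein-coding genes, 18 at an adjusted p of 0.1 and 0 to 0 with 1 library left out (752 to 1025 at an unadjusted p under 0.05). With the replicate number as a block, 14 genes passed and the folds of the 7 were the same. The labels do not say that the numbers pair libraries, and deviations of libraries with the same number had a correlation of −0.004 across genes. BRAF turned from 0.03 to −0.53 with a pseudocount of 0.1, −0.25 when libraries were rescaled to equal sums and −0.68 in limma-voom; the cause was not tested. The other 6 kept their sign in every alternative with 4 libraries. With 1 library left out, the log2 fold changes ran from −0.44 to 0.14 for HRAS, 0.61 to 1.28 for NRAS, −1.96 to 2.02 for BRAF, −0.67 to 0.92 for MAP2K1, −0.30 to 0.80 for MAP2K2, −0.58 to 3.04 for MAPK3 and 1.36 to 1.83 for DUSP6. Of the 27 other genes the naming rule chose from the lists, 7 changed sign or reached 0 in this way: ELK4 (−0.20 to 2.07), GOLGA7 (−0.47 to 6.87), ZDHHC9 (−0.69 to 3.68), GRB2 (−0.10 to 2.77), DUSP4 (−3.25 to 0), DUSP7 (−3.33 to 0.14) and PPP2CA (−0.17 to 3.13). In these fits the spread of the group with 1 library is taken from the other one. A gene whose groups do not overlap, such as NRAS or DUSP6, cannot change sign in them. Where MAPK3 or BRAF had 0 reads, in control 1 or knockout 1, the upper limits given cover counting error only. Each of these libraries had fewer genes above 0 than the other library of its group, and the cause was not tested. DUSP6 rests on 24 reads in all.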
